A study of Mus musculus with 4 samples.

Results

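The insulin-like growth factor gene Igf1, its receptor gene Igf1r and the binding protein genes Igfbp4, Igfbp5, Igfbp6 and Igfbp7 were followed in single brain cells selected for CD11b, a surface protein of myeloid cells. The 6 genes were taken by symbol from the 32285 genes of the count matrices, and all 6 were present. Their raw UMIs (unique molecular identifiers, each standing for 1 captured mRNA molecule) were summed within cell classes gated on marker genes that include none of the 6. The 4 libraries, 1 for each group with no replicate, came from IL6 KO (-/-) mice after cerebrovascular injury, IL6 WT (+/+) mice after the same injury, IL6 KO (-/-) mice after sham surgery and IL6 WT (+/+) mice after sham surgery, all taken at day 6. The injury was made by pulsed ultrasound over a thinned skull after intravenous microspheres, and which of the labels' severities, mild or severe, these mice had is not stated. Mice were 8 to 12 weeks old, and tissue was a 4 mm punch of brain. By treatment label the controls had sham surgery; by the extraction text they were uninjured. The number of mice behind a library, the strain and the altered part of Il6 were not given in the sources used here.

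IGF-1 is a secreted hormone-like growth factor that acts through the receptor tyrosine kinase IGF1R, which signals through the insulin receptor substrates to PI3 kinase and AKT. Secreted binding proteins carry IGFs in tissue fluid and can limit or prolong their access to the receptor, and IGFBP7 binds IGFs more weakly than the other members do. In the brain, microglia, the resident macrophages, are a known source of IGF-1 in development and after injury, and vascular cells are known to carry its receptor.

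After quality filters 7751 cells remained, with 2549 cells in the injured knockout-labelled library, 2883 in its wild-type counterpart, 1362 in the sham knockout-labelled library and 957 in the sham wild-type one. Median depth in these cells was between 7638 and 10016 UMIs. The sham wild-type library stood apart: 22.4% of its barcodes passed the filter, against 51.9% to 63.3% in the other 3, and the median mitochondrial share over all its barcodes was 24.5%, against 5.13% to 7.39%. The 2 sham libraries shared 23 cell barcodes, and other pairs shared 1 or 2. Il6, the gene named by the knockout, had 22.0 and 25.3 CPM (counts scaled to a common total of UMIs in each sum of cells) in the injured and the sham knockout-labelled libraries, against 4.65 and 10.6 CPM in the injured and the sham wild-type libraries, so its 3′ tags were not lower under the knockout label. Whether those tags lie outside the altered part of the gene is not known, and the libraries are called knockout-labelled throughout. With 1 library in each group no test was run, and each 95% interval covers counting error only, not differences between mice.

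Igf1 and Igfbp4 were highest in border macrophages among the 4 marker classes, and Igf1r and Igfbp7 were highest in endothelial cells, in each of the 4 libraries. Igfbp5 and Igfbp6 had no such fixed class. Microglia (P2ry12, Tmem119 and others) numbered 2160, 1846, 1157 and 742 in the injured knockout-labelled, injured wild-type, sham knockout-labelled and sham wild-type libraries. Macrophages marked by Lyz2 and Ms4a7 numbered 55 and 495 in the injured knockout-labelled and injured wild-type libraries, and 7 and 13 in the sham libraries, too few to describe. Border macrophages (Mrc1, Pf4, Cd163) numbered 34, 45, 44 and 43, and endothelial cells (Cldn5, Flt1), which the CD11b selection should leave behind, numbered 122, 74, 39 and 27, in the same order of libraries. A further 45 and 236 cells of the injured knockout-labelled and injured wild-type libraries had microglia and Lyz2/Ms4a7 marker sums within 2-fold of each other and are called in-between cells. The CD11b selection sets part of these numbers. In-between cells, outside the 4 classes, had Igf1 at 535 and 930 CPM, against 437 CPM in border macrophages of both injured libraries. Under the knockout label these intervals overlap. In the injured wild-type library the Igf1 intervals of border macrophages and Lyz2/Ms4a7 macrophages overlap, so their order there is not settled.

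**Figure D1:**
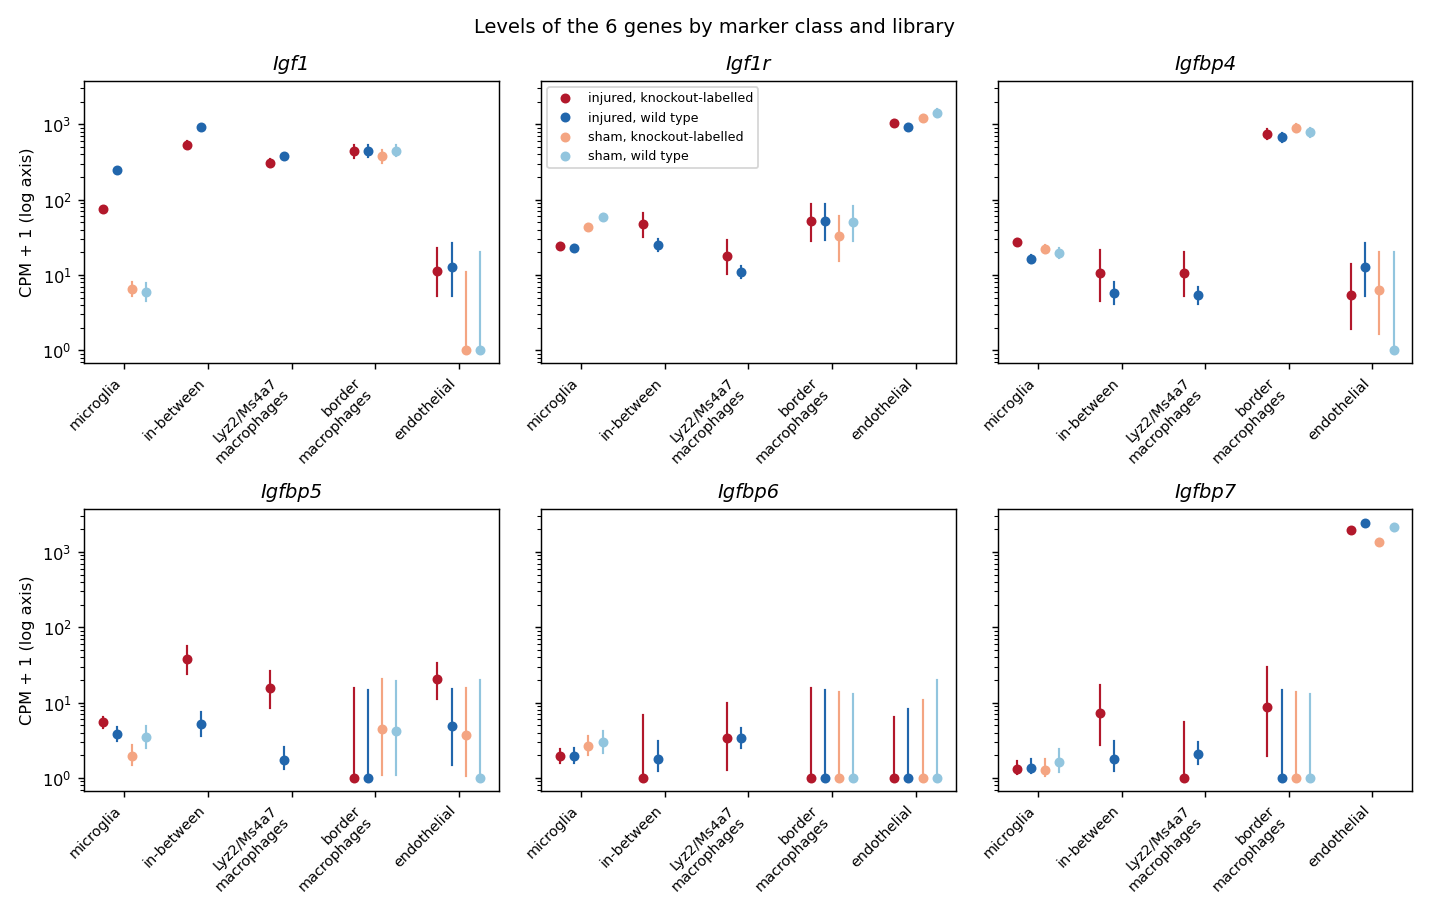
Level of each of the 6 genes (CPM + 1, log axis) by marker class, with 1 point per library and the exact Poisson 95% interval as a line; class and library combinations under 20 cells are not drawn. Igf1 separates the injured from the sham libraries in microglia and not in border macrophages, Igf1r and Igfbp7 stand highest in endothelial cells, and Igfbp4 stands highest in border macrophages.

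The 4 genes with a fixed class lie on different chromosomes of GRCm38 by GENCODE vM21: Igf1 on the plus strand of chromosome 10 (87858265 to 87937042), Igfbp4 on the plus strand of chromosome 11 (99041244 to 99054392), Igf1r on the plus strand of chromosome 7 (67952827 to 68233668) and Igfbp7 on the minus strand of chromosome 5 (77349240 to 77408041). Igfbp5 is on the minus strand of chromosome 1 (72857932 to 72874884) and Igfbp6 on the plus strand of chromosome 15 (102144362 to 102149511). The promoter windows of the 4 genes, 250 bases before to 50 bases after the RefSeq start on GRCm38.p6, are printed because these genes form pairs by class, Igf1 with Igfbp4 and Igf1r with Igfbp7. Windows were found for all 6 genes. Capitals mark GAGGAA (the core read by the myeloid factor PU.1), TATAAA (the TATA box) and GGGCGG (the GC box), searched on both strands, so that CCGCCC is a GC box read on the other strand; no 2 matches overlap.
Igf1, chr10:87860861-87861160, plus strand: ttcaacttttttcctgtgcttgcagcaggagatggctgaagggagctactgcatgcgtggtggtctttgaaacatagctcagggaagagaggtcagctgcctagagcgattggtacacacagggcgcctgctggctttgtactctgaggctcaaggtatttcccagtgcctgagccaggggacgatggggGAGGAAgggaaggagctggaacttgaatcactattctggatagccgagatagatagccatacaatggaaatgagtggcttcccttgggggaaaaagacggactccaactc
Igfbp4, chr11:99040994-99041293, plus strand: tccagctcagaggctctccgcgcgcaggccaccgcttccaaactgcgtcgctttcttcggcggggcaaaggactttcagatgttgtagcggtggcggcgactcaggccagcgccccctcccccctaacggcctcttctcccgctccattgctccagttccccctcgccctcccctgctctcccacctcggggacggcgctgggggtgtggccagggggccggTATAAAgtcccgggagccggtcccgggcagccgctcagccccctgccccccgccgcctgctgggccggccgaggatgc
Igf1r, chr7:67952007-67952306, plus strand: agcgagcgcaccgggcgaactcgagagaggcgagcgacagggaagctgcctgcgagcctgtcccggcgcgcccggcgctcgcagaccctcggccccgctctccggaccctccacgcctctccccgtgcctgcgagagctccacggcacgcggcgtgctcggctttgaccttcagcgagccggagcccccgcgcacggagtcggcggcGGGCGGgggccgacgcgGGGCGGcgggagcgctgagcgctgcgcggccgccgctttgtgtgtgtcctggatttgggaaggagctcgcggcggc
Igfbp7, chr5:77407996-77408295, minus strand: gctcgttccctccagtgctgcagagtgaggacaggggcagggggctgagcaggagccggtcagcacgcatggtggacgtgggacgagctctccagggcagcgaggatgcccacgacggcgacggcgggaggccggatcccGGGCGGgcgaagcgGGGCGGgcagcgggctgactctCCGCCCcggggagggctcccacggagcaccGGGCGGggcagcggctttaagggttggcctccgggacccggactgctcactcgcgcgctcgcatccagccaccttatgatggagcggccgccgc
The Igf1 window, which lies inside the GENCODE gene, holds 1 GAGGAA, a motif present in 28.3% of all 32851 mouse windows of this length. The Igfbp4 window holds 1 TATAAA, present in 13.6% of all windows. The Igf1r window holds 2 GC boxes and the Igfbp7 window 4, and 35.7% of all windows hold at least 1. GC content was 76.0% for Igf1r, 73.3% for Igfbp7 and 71.3% for Igfbp4, and 52.3% for Igf1, next to a median of 52.7% over all windows. These matches describe the letters of the windows and say nothing of binding, and counts at the 3′ end do not tell which start or splice form of a gene was used.

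Igf1, the ligand, was nearly undetected in sham microglia and present in a sizeable share of injured microglia. Summed over the class, Igf1 had 74.2 CPM in injured knockout-labelled microglia (1570 UMIs, 95% interval 70.6 to 78.0) and 248 CPM in injured wild-type microglia (4672 UMIs, 241 to 256), against 5.54 CPM in sham knockout-labelled microglia (62 UMIs, 4.25 to 7.10) and 4.96 CPM in sham wild-type microglia (40 UMIs, 3.54 to 6.76). Both injured values lie above both sham values, and the sham intervals overlap each other. The ratio of injured to sham was 13.4 in the knockout-labelled pair (10.4 to 17.6) and 50.1 in the wild-type pair (36.7 to 70.2). Injured knockout-labelled microglia held 0.299 times the level of injured wild-type microglia (0.282 to 0.316), and the sham ratio of the same labels was 1.12 (0.738 to 1.71). On the log2 scale with 10 CPM added to both sides, the injury differences were 2.44 and 4.11 and the difference of the labels after injury was -1.62.

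Among the 6 genes, 3 reached the filter of 20 CPM in a compared library and 50 UMIs over the 4 libraries in the knockout-labelled injury comparison, and 2 did in the wild-type one. Igf1 was the member called at least 2-fold higher in both, next to 2.56% of 6140 genes called higher in the knockout-labelled pair and 3.55% of 6222 genes in the wild-type pair. Median-of-ratios scaling, which moved the median of all genes to 0.07 in both pairs, against -0.21 and -0.30 with CPM, left Igf1 at 2.56 and 4.25. Of all genes called in either direction, 63.3% and 31.7% were higher in the knockout-labelled and wild-type pairs with CPM, and 90.1% and 84.3% with that scaling. The share of tested genes called higher was then 4.30% and 7.26%, and the share called lower was 0.472% and 1.35%. With injured libraries compared by label, Igf1 was the member, of 3 that reached the filter, called at least 2-fold lower in the knockout-labelled library, next to 0.447% of 5375 genes. Between the sham libraries Igf1r and Igfbp4 reached the filter and 0 members were called, next to 0.065% of 6150 genes called higher and 0.114% lower.

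The UMIs of Igf1 were spread unevenly over microglia. At least 1 Igf1 UMI was found in 16.5% of injured knockout-labelled microglia (15% to 18.2%) and 34.9% of injured wild-type microglia (32.7% to 37.1%), against 1.56% of sham knockout-labelled (0.925% to 2.45%) and 2.56% of sham wild-type microglia (1.55% to 3.97%). With each cell thinned to 3000 UMIs, the shares were 8.71% and 22.0% in the injured knockout-labelled and wild-type libraries and 0.916% and 0.657% in the sham knockout-labelled and wild-type libraries; 232, 139, 174 and 133 shallower cells were left out. Endothelial cells, taken as the background for Igf1, had an Igf1 UMI in 4.92% and 6.76% of cells of the injured knockout-labelled and wild-type libraries, at a median depth of 4250 and 4546 UMIs against 8672 and 8584 UMIs in the microglia. Thinned in the same way, these endothelial shares were 2.08% and 5.56%, below the microglial shares of the same libraries. In the sham libraries 0 of 39 and 0 of 27 endothelial cells had one, which allows shares of up to 7.69% and 11.1%. With so few endothelial cells, this comparison could not tell whether the sham microglial shares exceed background.

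Few cells held most of the Igf1 molecules of injured wild-type microglia. Microglia with 10 or more Igf1 UMIs numbered 37 in the injured knockout-labelled library (1.71% of its microglia, 43.2% of their Igf1 UMIs) and 161 in the injured wild-type library (8.72%, 67.7% of the UMIs). In the sham knockout-labelled library 2 such cells, with 20 and 15 UMIs, held 56.5% of the 62 UMIs, and in the sham wild-type library 1 cell with 13 UMIs held 32.5% of the 40. The sham levels therefore rest on a handful of cells, and so do the sizes of the injured to sham ratios. Shared barcodes were left out as a check and gave log2 differences of 2.43 and 4.24 for the injury in the knockout-labelled and wild-type pairs.

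**Figure D2:**
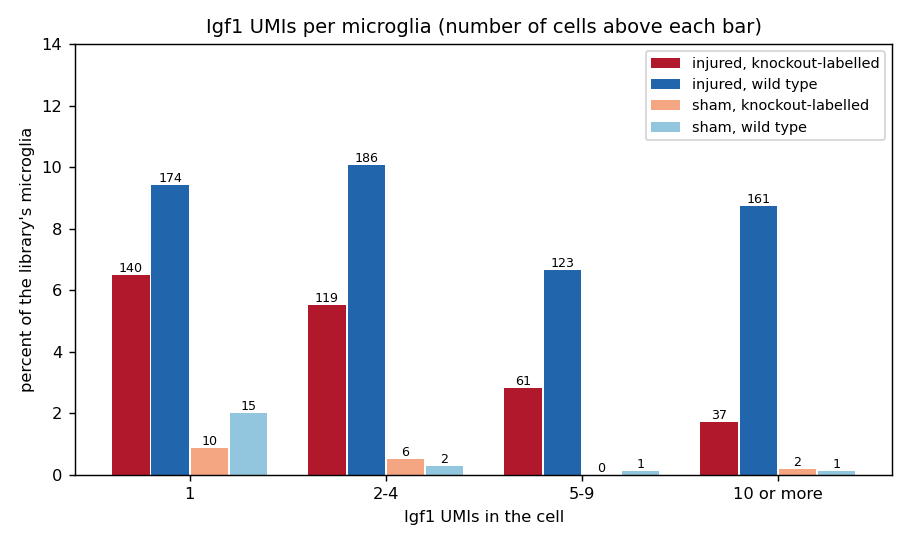
Share of each library's microglia (percent, bars; number of cells printed above) by the number of Igf1 UMIs found in the cell; cells with 0 UMIs are not drawn. Bars of the injured wild-type library exceed those of the injured knockout-labelled library in every bin, most in cells with 10 or more UMIs (161 against 37 cells), and the sham libraries hold 15 or fewer cells per bin.

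Injured and sham microglia fell mostly into different clusters, and Igf1 was concentrated in 2 of them after injury. Clusters were made without the 6 genes or other IGF genes and are named by their 2 leading genes. The Slc5a3/Ints6 and Hspa1b/P2ry13 clusters held 35.2% and 33.0% of sham knockout-labelled microglia and 41.6% and 22.4% of sham wild-type microglia, and Igf1 was at most 5.11 CPM in these sham cells. In the injured knockout-labelled library the Lpl/Ch25h cluster held 14.7% of microglia and 60.0% of their Igf1 UMIs, and the Cd5l/Spp1 cluster held 0.926% and 11.9%. In the injured wild-type library the Lpl/Ch25h cluster held 21.2% of microglia and 40.5% of their Igf1 UMIs, and the Cd5l/Spp1 cluster held 10.5% and 44.5%. Both clusters together thus carried most Igf1 of injured microglia under either label. The few sham microglia of the Lpl/Ch25h cluster also held Igf1. In the sham knockout-labelled library 3 such cells held 35 UMIs, 56.5% of its microglial Igf1, at 489 CPM. In the sham wild-type library 4 held 8 UMIs (20%), at 133 CPM. The Lpl/Ch25h level after injury was 173 CPM in knockout-labelled and 327 CPM in wild-type microglia, so Igf1 in this cluster was not particular to injury. The Il1a/Gpr84 cluster, which held 24.6% and 18.3% of injured knockout-labelled and wild-type microglia, had Igf1 at 8.95 and 12.5 CPM.

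Within clusters, the injured knockout-labelled cells had less Igf1 than the injured wild-type cells, by a smaller factor than over the whole class. Of the 10 clusters with at least 50 Igf1 UMIs in the 2 injured libraries, all cells of the cluster included, the ratio was below 1 in 10 and its interval was below 1 in 7. The lowest ratio was 0.406 in the cycling Top2a/Ube2c cluster (186 CPM in 29 cells against 459 CPM in 65 cells, interval 0.329 to 0.498). All 29 of these knockout-labelled cells were gated microglia. Of the 65 wild-type cells 48 were, at 317 CPM, so the cell mix of this cluster differed by library. The highest ratio was 0.908 in the Ccl7/Mrc1 cluster (289 against 318 CPM, 0.722 to 1.14). Gated border macrophages made up 57.1% of that cluster over the 4 libraries. The Cd5l/Spp1 cluster had 512 CPM in 43 knockout-labelled cells and 899 CPM in 413 wild-type cells, a ratio of 0.570 (0.518 to 0.625), and the Lpl/Ch25h cluster 183 and 353 CPM, a ratio of 0.519 (0.481 to 0.559). The clusters share the same 2 libraries, so they are not independent repeats of the difference.

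**Figure D3:**
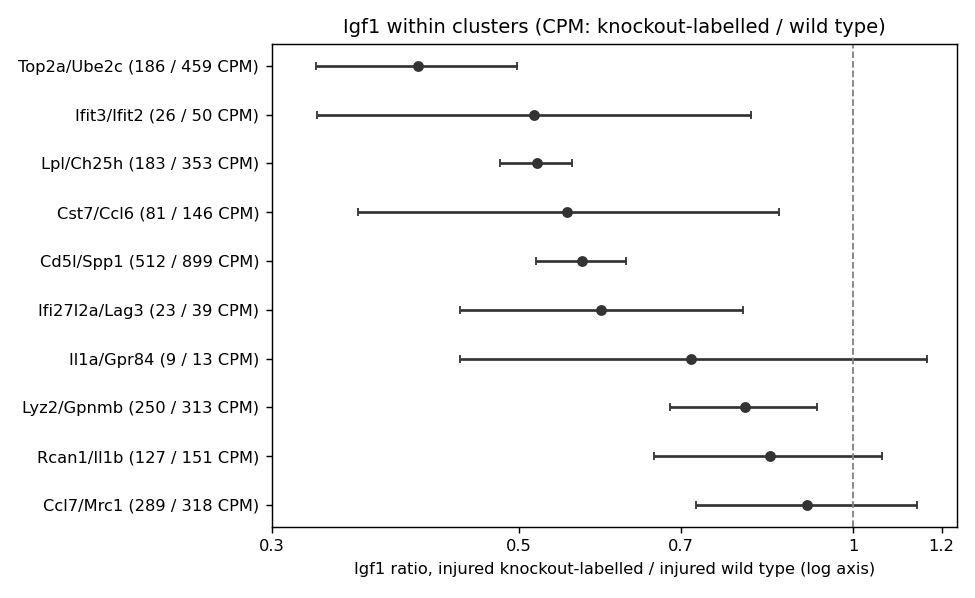
Ratio of Igf1 CPM, injured knockout-labelled over injured wild type (log axis), in the 10 clusters with at least 50 Igf1 UMIs, with exact conditional 95% intervals and both CPM values beside each cluster's 2 leading genes. Points run from 0.406 to 0.908, and the intervals of the Il1a/Gpr84, Rcan1/Il1b and Ccl7/Mrc1 clusters reach past 1.

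Igf1 also varied along the balance of macrophage to microglia markers. In both injured libraries, cells were placed by the log2 ratio of their Lyz2/Ms4a7 marker sum to their microglia marker sum. Between -5 and -4 Igf1 had 16.3 CPM in the knockout-labelled and 22.0 CPM in the wild-type library (ratio 0.740, 0.521 to 1.06), and between -4 and -3 it had 58.0 and 68.2 CPM (0.850, 0.734 to 0.984). Nearer to balance the libraries parted: between -3 and -2 Igf1 had 156 CPM in the knockout-labelled and 288 CPM in the wild-type library (0.542, 0.492 to 0.597), between -2 and -1 314 and 591 CPM (0.531, 0.482 to 0.584), and between -1 and 0 559 CPM in 29 cells and 930 CPM in 156 cells (0.601, 0.519 to 0.693). The bins from -3 to -1 held 13.2% and 5.25% of the knockout-labelled cells with a ratio up to 0, against 21.9% and 15.5% of the wild-type cells. Past balance, where the wild-type library alone had 20 or more cells per bin, Igf1 stayed at 931 CPM between 0 and 1 and was 692 CPM between 1 and 2 and 297 to 338 CPM beyond.

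**Figure D4:**
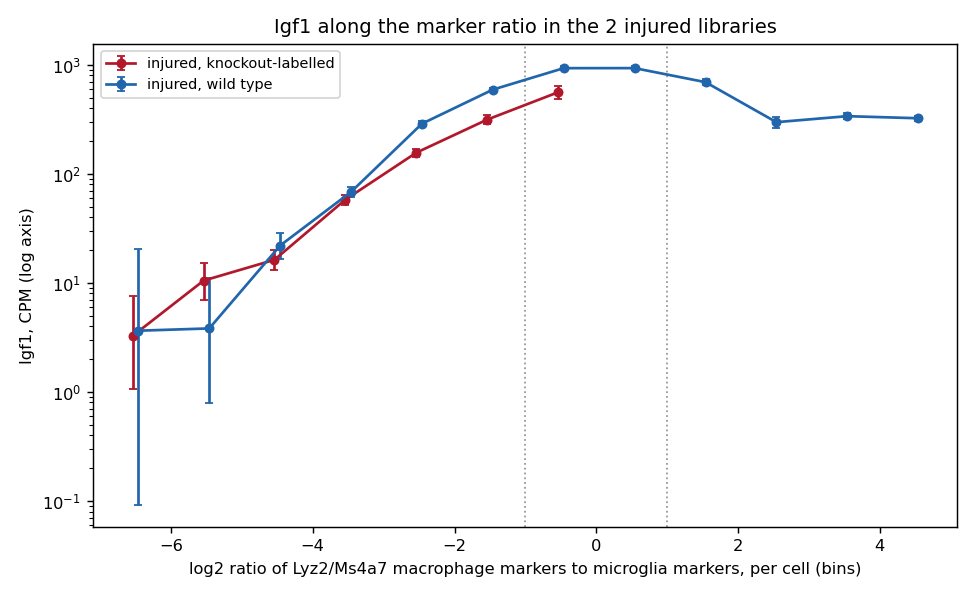
Igf1 (CPM, log axis) in bins of the per-cell log2 ratio of Lyz2/Ms4a7 macrophage markers to microglia markers, for the 2 injured libraries with exact Poisson 95% intervals; dotted lines mark the limits of the in-between class, and bins under 20 cells are not drawn. Both libraries climb toward balance, the intervals of the libraries part from -3 upward with the wild-type library above, and its level is highest between -1 and 1 (930 and 931 CPM).

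The gate and the marker levels moved with the same libraries. The Lyz2/Ms4a7 marker list (8 genes, led in microglia by Lyz2, Ms4a6c and Gpnmb) summed to 1408 and 2180 CPM in injured knockout-labelled and injured wild-type microglia, against 353 and 383 CPM in sham knockout-labelled and sham wild-type microglia, with 1 of the 8 at 0 in the sham knockout-labelled library. The microglia list (10 genes, none at 0) summed to 17588 and 15111 CPM in injured and 23847 and 21040 CPM in sham microglia of the knockout-labelled and wild-type libraries. With a gate that asked for a 4-fold excess of microglia markers, the log2 difference of the labels after injury was -1.19, and with in-between cells counted as microglia it was -2.04. The part of these marker levels in the Igf1 difference, and the identity of the in-between cells, was not tested.

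Outside the microglia gate, in-between cells and each macrophage class held Igf1 at a high level after injury. In-between cells had 535 CPM in the injured knockout-labelled library (479 to 595) and 930 CPM in the injured wild-type library (904 to 958). These cells exceeded microglia of their own library 7.21-fold (6.39 to 8.11) under the knockout label and 3.74-fold (3.60 to 3.90) in the wild type, next to 2.66% and 1.8% of genes called higher in that contrast. Lyz2/Ms4a7 macrophages had 304 CPM in the injured knockout-labelled library (251 UMIs, 267 to 344) and 380 CPM in the injured wild-type library (3530 UMIs, 368 to 393), a ratio of 0.799 (0.70 to 0.908) and a log2 difference of -0.31. Igf1 was within 2-fold there, where 0.759% of 5138 genes were called lower and 0.662% higher, and the stricter gate moved the difference to -0.11. Against microglia of the same library, Igf1 was 4.09-fold (3.57 to 4.68) in these macrophages under the knockout label, next to 5% of genes called higher, and 1.53-fold (1.46 to 1.60), within 2-fold, in the wild type, next to 4.51%. Within the injured wild-type library Igf1 was 2.45 times higher in in-between cells than in Lyz2/Ms4a7 macrophages (2.34 to 2.56), and it was called 2-fold higher next to 2.4% of 5124 genes. In the knockout-labelled library the same ratio was 1.76 (1.49 to 2.08), within 2-fold, next to 3.71% of 3342 genes called higher.

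Border macrophages, the long-lived macrophages of meninges and perivascular spaces, held Igf1 at a similar level in every library. It was 437 CPM in the injured knockout-labelled library (111 UMIs, 359 to 526), 437 CPM in the injured wild-type library (118 UMIs, 361 to 523), 373 CPM in the sham knockout-labelled library (107 UMIs, 306 to 451) and 446 CPM in the sham wild-type library (137 UMIs, 375 to 528). All 4 intervals overlap, that of the injured wild-type library also overlaps the one of its Lyz2/Ms4a7 macrophages, and the class had under 50 cells in each library. In the sham libraries this class was 67.4 times above microglia under the knockout label (48.8 to 93.7) and 89.9 times above in the wild type (62.8 to 131), where 7.41% and 7.48% of tested genes were called at least 2-fold higher in border macrophages. In the injured libraries the factor was 5.89 (4.81 to 7.14) and 1.76 (1.45 to 2.11). Of the 8 Lyz2/Ms4a7 markers, 4 or 5 were at 0 in the border class of each library, while Lyz2 stood there at 7195 to 8412 CPM, Ms4a7 at 1015 to 1292 CPM and Ms4a6c at 513 to 818 CPM.

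Over all 16 class and library sums with at least 20 cells, the genes whose log2 CPM ran most like that of Igf1 among 5827 genes were Rab7b (Pearson r 0.982), Lilrb4a (0.975), Apoe (0.969), Lgals1 (0.961) and Gabarap (0.957). The sums of a library share its cells and those of a class share its identity, so r is a description of these sums.

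Igf1r, the receptor, was highest per UMI in endothelial cells, which held 42.3% of all its UMIs in 262 cells, while the 5905 microglia held 40.9%. Endothelial Igf1r stood at 1047 CPM in the injured knockout-labelled library (704 UMIs, 972 to 1128) and 923 CPM in its wild-type counterpart (477 UMIs, 842 to 1010), against 1210 CPM in the sham knockout-labelled library (453 UMIs, 1101 to 1326) and 1398 CPM in the sham wild-type library (270 UMIs, 1236 to 1575). At least 90.5% of endothelial cells had an Igf1r UMI in each library. Endothelial levels exceeded microglial ones 45.3-fold (40.3 to 51.0) and 42.9-fold (37.5 to 49.1) in the injured knockout-labelled and wild-type libraries and 28.3-fold (24.9 to 32.3) and 24.0-fold (20.6 to 28.0) in the sham ones. Genes called at least 2-fold higher in endothelial cells than in microglia made up 22.5%, 22.4%, 17.1% and 16% of those tested in the 4 libraries in that order. Between labels after injury the endothelial ratio was 1.13 (1.01 to 1.28), and 0.299% of 5347 genes were called higher and 0.711% lower. The sham endothelial classes had fewer than 50 cells, so injured and sham values are given side by side only. The 29 cells with mural markers (pericytes and smooth muscle) held Igf1r at 615 CPM, border macrophages held 31.4 to 51.8 CPM, and Lyz2/Ms4a7 macrophages held 16.9 and 9.91 CPM in the injured knockout-labelled and wild-type libraries.

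Microglial Igf1r was low and lower after injury. It had 23.1 CPM (489 UMIs, 21.1 to 25.3) in injured knockout-labelled and 21.5 CPM (405 UMIs, 19.5 to 23.7) in injured wild-type microglia, against 42.7 CPM (478 UMIs, 39.0 to 46.7) in sham knockout-labelled and 58.2 CPM (469 UMIs, 53.0 to 63.7) in sham wild-type microglia. Both injured values lie below both sham values, and the 2 sham values do not overlap. The ratio of injured to sham was 0.541 in the knockout-labelled pair (0.476 to 0.615) and 0.370 in the wild-type pair (0.323 to 0.424). On the log2 scale the wild-type difference of -1.11 was called 2-fold lower, next to 7.67% of 6222 genes, and the knockout-labelled difference of -0.67 was not, next to 1.48% of 6140 genes called lower. The wild-type call ended with median-of-ratios scaling (-0.72), under which 1.35% of genes were called lower. It also ended with the sham knockout-labelled library as baseline (-0.74), and with the sham wild-type library as baseline the knockout-labelled difference was -1.04 and was called, so which pair was called followed the sham library used. After injury the labels had a ratio of 1.07 (0.939 to 1.23).

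Igfbp7, a binding protein of vascular basement membranes, was highest in vascular cells. Endothelial cells had 1988 CPM in the injured knockout-labelled library (1336 UMIs, 1883 to 2097) and 2398 CPM in the injured wild-type library (1239 UMIs, 2266 to 2536), against 1343 CPM in the sham knockout-labelled library (503 UMIs, 1228 to 1466) and 2123 CPM in the sham wild-type library (410 UMIs, 1923 to 2339). The sham knockout-labelled value lies below the other 3, and the interval of the sham wild type overlaps those of both injured libraries. Microglia had 3 to 7 Igfbp7 UMIs per library and at most 0.620 CPM, in at most 0.674% of cells and with at most 1 UMI in any of them. Endothelial cells held 69.1% of all Igfbp7 UMIs, and the 29 cells with mural markers held 21.6%, at 3028 CPM. The 11 cells with fibroblast markers held 5.79%, at 1338 CPM, and 30 cells with ependymal or choroid plexus markers held 2.28%, at 279 CPM. Both levels lean on single cells: 1 fibroblast-marker cell held 143 of 292 UMIs, and 1 ependymal or choroid plexus cell held 101 of 115.

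After injury, endothelial Igfbp7 in the knockout-labelled library was 0.829 times that in the wild-type library (0.767 to 0.896), a log2 difference of -0.27, within 2-fold. Mural markers, 8 genes led by Rgs5, Vtn and Kcnj8, summed to 278 CPM in the endothelial class of the injured knockout-labelled library and 420 CPM of the injured wild-type library, against 366 and 658 CPM in the sham knockout-labelled and wild-type libraries. Of the 8, 0 were at 0 in the injured libraries, 1 in the sham knockout-labelled library and 3 in the sham wild-type library. Their part in the Igfbp7 levels was not tested. Fibroblast markers summed to at most 7.74 CPM in the class. Genes most like Igfbp7 over the 16 sums were Emcn (0.998), Grb14 (0.998), Sema3c (0.997), Adgrf5 (0.997) and Ddc (0.997).

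Igfbp4, a binding protein that mostly inhibits IGF action and is cut by the protease PAPP-A, was highest in border macrophages among the 4 marker classes. It had 748 CPM in the injured knockout-labelled library (190 UMIs, 645 to 862) and 670 CPM in the injured wild-type library (181 UMIs, 576 to 775), against 903 CPM in the sham knockout-labelled library (259 UMIs, 797 to 1020) and 782 CPM in the sham wild-type library (240 UMIs, 686 to 887). Neighbouring values overlap, and only the lowest and the highest, injured wild type and sham knockout-labelled, do not. The class had under 50 cells in each library. Relative to microglia the border level was 28.0-fold (23.6 to 33.1) and 43.7-fold (36.1 to 52.9) in the injured knockout-labelled and wild-type libraries and 43.0-fold (35.9 to 51.5) and 42.0-fold (34.1 to 51.9) in the sham ones. In the injured libraries, 9.8% and 11.4% of tested genes were called at least 2-fold higher in this contrast. Over all libraries, border macrophages held 32.9% of all Igfbp4 UMIs and the far more numerous microglia 46.9%. The 11 cells with fibroblast markers held 5.07%, at 614 CPM, so a high level was not particular to border macrophages. Endothelial cells held 0 to 6 Igfbp4 UMIs per library. Against them, genes called at least 2-fold higher in border macrophages made up 12%, 13.6%, 15.6% and 21.4% in the 4 libraries, and Igfbp4 and Igf1 were among them in each.

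Microglia held Igfbp4 at a low level in every library, with 26.7 CPM (565 UMIs, 24.5 to 29.0) in injured knockout-labelled and 15.3 CPM (288 UMIs, 13.6 to 17.2) in injured wild-type microglia, against 21 CPM (235 UMIs, 18.4 to 23.9) in sham knockout-labelled and 18.6 CPM (150 UMIs, 15.7 to 21.8) in sham wild-type microglia. The injured knockout-labelled value lies above the other 3. Its ratio to the injured wild type was 1.74 (1.51 to 2.02) and a log2 difference of 0.54, within 2-fold. The injured to sham ratio was 1.27 in the knockout-labelled pair (1.09 to 1.49) and 0.823 in the wild-type pair (0.673 to 1.01), where the log2 difference of -0.18 became 0.11 with median-of-ratios scaling. Along the marker ratio the 2 injured libraries had 41.6 and 39.5 CPM between -6 and -5, 24.7 and 15.9 CPM between -4 and -3, and 9.29 and 9.32 CPM between -2 and -1, knockout-labelled library first. Between -1 and 0, the bin with the most Igf1 in the knockout-labelled library, Igfbp4 had 16.5 CPM there (6 UMIs in 29 cells) and 4.58 CPM in the wild-type library (14 UMIs), a ratio of 3.61 (1.14 to 10.0). From -6 to -1 Igfbp4 was thus lower in bins where Igf1 was higher, and in the last bin this held in the wild-type library only.

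Summed over cells, the CPM of Igfbp4 was lower in cells where Igf1 was detected. Among microglia and in-between cells with an Igf1 UMI, Igfbp4 after injury had 12.3 CPM under the knockout label and 8.20 CPM in the wild type, against 31.9 and 21 CPM in the cells without one. The ratio of cells with to cells without was 0.385 (0.299 to 0.489) in the knockout-labelled library and 0.391 (0.309 to 0.494) in the wild-type library. Cells with an Igf1 UMI were deeper, with medians of 14485 and 15211 UMIs against 8093 and 7136. In counts, Igfbp4 had 78 UMIs in 390 such cells and 493 UMIs in 1815 cells without one under the knockout label. In the wild type it had 120 UMIs in 867 cells and 192 UMIs in 1215 cells. Counts per cell thus differed less than CPM did, and the part of depth in these ratios was not tested. No share over all genes was taken for this contrast. Igf1r showed ratios of 1.25 (1.04 to 1.51) and 0.982 (0.821 to 1.18) in the same cells.

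Igfbp5, a binding protein that also sticks to extracellular matrix, was rare and concentrated in few cells. In microglia it had 4.54 CPM (96 UMIs) in the injured knockout-labelled and 2.82 CPM (53 UMIs) in the injured wild-type library, against 0.983 CPM (11 UMIs) in the sham knockout-labelled and 2.48 CPM (20 UMIs) in the sham wild-type library. Cells with an Igfbp5 UMI made up 1.2% and 1.19% of injured knockout-labelled and wild-type microglia and 0.951% and 2.70% of sham ones, so the knockout-labelled libraries differed in UMIs per positive cell and not in the share of positive cells, and the wild-type levels have overlapping intervals (2.11 to 3.69 injured, 1.52 to 3.83 sham). In the injured knockout-labelled library 2 microglia held 34 Igfbp5 UMIs each, in the injured wild-type library the top cell held 23, and in the sham libraries no microglia held more than 1. Among microglia and in-between cells, 3 cells in each injured library had 5 or more Igfbp5 UMIs, holding 89 UMIs in the knockout-labelled and 36 in the wild-type library. All 6 of these cells also carried Igf1, at 12 to 31 UMIs in the knockout-labelled and 39 to 66 UMIs in the wild-type library; they were chosen after their values were seen. Border macrophages had at most 1 Igfbp5 UMI per library.

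Outside the 4 classes, 11 cells with fibroblast markers held 34.8% of all Igfbp5 UMIs, with up to 91 UMIs in a cell. Those 11 cells also held 37.8% of all Igfbp6 UMIs, and 1 of them, from the injured wild-type library, held all 79. Igfbp6, a binding protein that prefers IGF-2, otherwise stayed near the detection limit. Microglia had 0.945 and 0.957 CPM in the injured knockout-labelled and wild-type libraries and 1.70 and 1.98 CPM in the sham ones, with at most 1 UMI in any cell. Endothelial cells and border macrophages had 0 Igfbp6 UMIs in all 4 libraries, which allows up to 15.5 CPM in the smallest of these sums.

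Around the 6 genes, 33 further IGF pathway genes were examined: 1 ligand, 2 receptors, 5 carriers, 6 proteases, inhibitors or degrading enzymes, and 19 genes of signal transduction. In microglia 15 of the 33 reached the filter in each injury comparison. The knockout-labelled pair had 0 of these called higher and 0 called lower, and the wild-type pair had 0 called higher and 2 called lower, next to 2.56% and 1.48% of all tested genes called in these directions for the knockout label and 3.55% and 7.67% for the wild type. With median-of-ratios scaling 0 of the 15 were called in either pair. Their median log2 difference was -0.48 and -0.78 in the knockout-labelled and wild-type pairs, next to -0.21 and -0.30 over all genes tested, and -0.18 and -0.39 with median-of-ratios scaling, next to 0.07 and 0.07. By role, 13 of 19 genes of signal transduction were tested and 12 of these 13 lay below 0 in each pair, where 71.8% and 69.3% of all tested genes of the knockout-labelled and wild-type pairs lay below 0. With median-of-ratios scaling 9 and 8 of the 13 lay below 0, next to 40.9% and 44.9% of all genes. With either scaling 1 of 2 receptors and 1 of 6 proteases, inhibitors or degrading enzymes were tested and lay below 0, and no carrier or ligand reached the filter. Pik3r1, a regulatory subunit of PI3 kinase, was among those called lower.

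Pik3r1 had 172 CPM in injured knockout-labelled and 121 CPM in injured wild-type microglia, against 257 and 283 CPM in sham microglia of the same labels, and its wild-type log2 difference was -1.16. It was within 2-fold with median-of-ratios scaling (-0.71) and with the stricter gate (-0.99). Between labels after injury, 12 of the 33 reached the filter in microglia and 0 were called in either direction, and likewise 0 of 12 in Lyz2/Ms4a7 macrophages and 0 of 16 in endothelial cells.

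**Figure D5:**
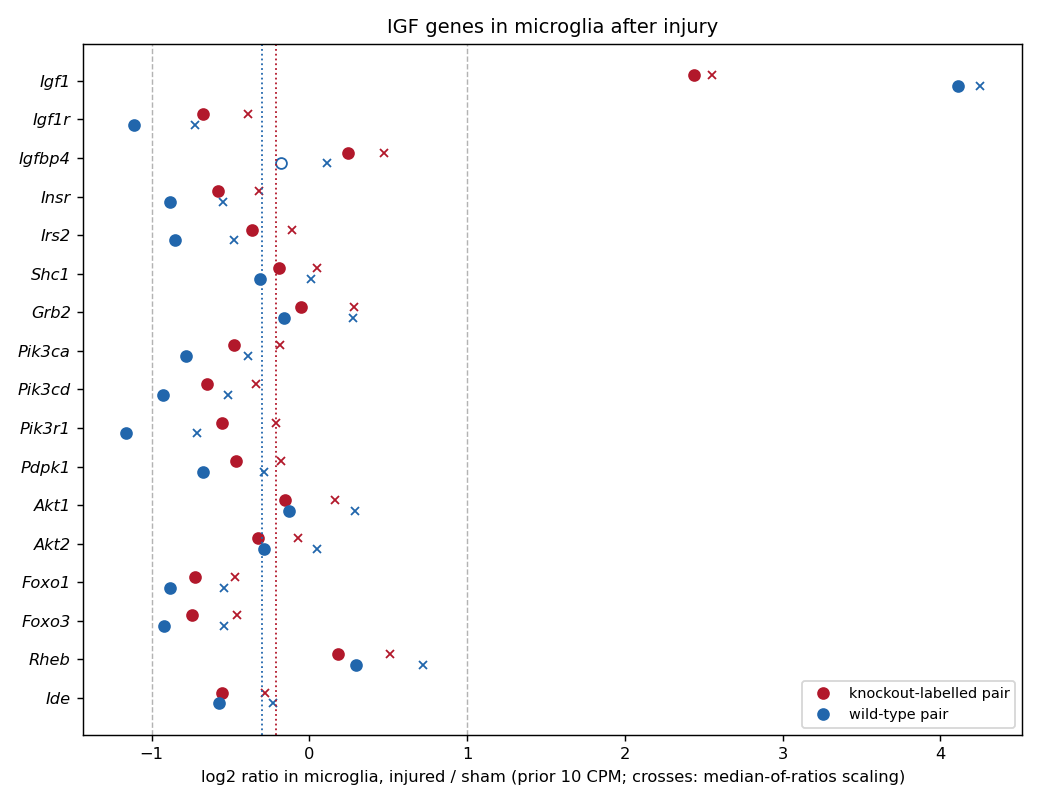
Log2 ratio of injured to sham microglia (10 CPM added to both sides; crosses with median-of-ratios scaling) for the 3 members and 14 of the 15 pathway genes that reached the filter, in the knockout-labelled pair and the wild-type pair; an open circle did not reach it in that pair, dotted lines mark the median of all genes and dashed lines 2-fold. Igf1 stands alone on the right at 2.44 and 4.11, and Pik3r1 and Igf1r pass the 2-fold line on the left in the wild-type pair.

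The other receptors had patterns of their own. Insr, the insulin receptor, had 83.3 and 73.6 CPM in endothelial cells of the injured knockout-labelled and wild-type libraries, against 128 and 166 CPM in the sham ones. In microglia Insr had 16.4 and 11.5 CPM after injury, against 29.5 and 29.8 CPM after sham surgery, a ratio of 0.556 (0.477 to 0.649) in the knockout-labelled pair and 0.388 (0.321 to 0.468) in the wild-type pair, both within 2-fold on the log2 scale with 10 CPM added. With 1 CPM added the wild-type difference was -1.30 and was called lower. Igf2r, which takes up IGF-2 and sorts lysosomal enzymes, had 36.3 and 27.5 CPM in Lyz2/Ms4a7 macrophages of the injured knockout-labelled and wild-type libraries. In microglia Igf2r did not reach the filter, with 51 and 75 UMIs after injury, against 5 UMIs and 1 UMI after sham surgery. These are raw counts from sums of unequal size. The totals were 21161182 and 18806451 UMIs in injured and 11191730 and 8061109 UMIs in sham microglia, knockout-labelled library first. Igf2, the second ligand, had 1 to 8 UMIs in microglia of each library and 3, 8, 11 and 28 UMIs in border macrophages of the injured knockout-labelled, injured wild-type, sham knockout-labelled and sham wild-type libraries.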

How the data were processed

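Cells of 4 mouse brain libraries (CD11b selection, 10x 3′ v3) were analysed. As deposited, the values are unnormalised UMI counts of each gene in each barcode. The submitters' processing notes name Cell Ranger 6.0.1 and mm10. Their lowest barcode has 500 UMIs. Depth was 9375081 to 35281154 UMIs per library after filtering.

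Barcodes under 500 genes, under 1000 UMIs or over 10% mitochondrial UMIs were dropped. Scrublet scores removed 0.8% of barcodes per 1000 barcodes as doublets. Cells were gated on marker UMIs per 10000 (89 genes in 13 lists, a minimum of 32), with microglia and Lyz2/Ms4a7 macrophages parted by a 2-fold excess of either marker sum. Near the limits lay 175 of 5905 microglia, 51 of 570 Lyz2/Ms4a7 macrophages, 36 of 166 border macrophages and 2 of 262 endothelial cells. Near meant a log2 ratio within 1.5 times the limit. For border macrophages and endothelial cells only, a marker sum within 1.5 times the minimum also counted. Clusters (2000 variable genes without IGF genes, 30 components, 15 neighbours, resolution 1, seed 0) were an alternative. The members, marker lists and pathway list were chosen with earlier results of these data known, and the gate limits after marker sums, but not members' values, were seen.

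UMIs were summed per class and library and given as CPM with exact Poisson 95% intervals. Ratios carry exact conditional binomial intervals and shares Clopper-Pearson intervals, all for counting error only. Log2 ratios add 10 CPM. A gene was called at 2-fold with at least 20 CPM in a compared library and 50 UMIs over the 4 libraries. Values of 0 have a floor of 3 counts. No ratio between libraries was formed for gated classes under 50 cells per library. Clusters and bins needed 20 cells in each. Named genes were the members, the other ligand and receptors, pathway genes called at 2-fold (1 of which is not reported here), 3 leading markers of a list and the 5 genes most like Igf1 and Igfbp7. Alternatives were median-of-ratios scaling, a prior of 1 CPM, no filter on low counts, cells of 3000 UMIs or more, equal weight of cells, clusters, a 4-fold gate, doublets kept and the other sham library. Adding in-between cells and leaving out shared barcodes were chosen after seeing the data. Summing and calling were tested on simulated data. Sequences are from RefSeq (GRCm38.p6), positions from GENCODE vM21. Python 3.11.15, scanpy 1.11.5, scipy 1.17.1, numpy 2.4.6 and pandas 2.3.3 were used.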

Additional observations from a re-analysis of the deposited data

How the results depend on the processing

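Taken over the whole class, microglial Igf1 kept its direction and its 2-fold call under every alternative run. Within the 10 clusters described above, the ratio of the labels after injury was 0.406 to 0.908, 2-fold lower only in the Top2a/Ube2c cluster. The lowest such ratio in a bin of the marker ratio was 0.531. The log2 difference of injured from sham, 2.44 in the knockout-labelled and 4.11 in the wild-type pair, was 3.52 and 5.39 with a prior of 1 CPM and 2.09 and 3.57 with cells weighted equally, and the wild-type value was 3.31 with the stricter gate and 4.65 with in-between cells added. The difference of the labels after injury, -1.62, was -1.70 with median-of-ratios scaling, -1.73 with a prior of 1 CPM, -1.36 with clusters in place of gates, -1.19 with the stricter gate and -2.04 with in-between cells added. In Lyz2/Ms4a7 macrophages -0.31 became -0.11 with the stricter gate. The cause of these moves was not tested. Totals of genes called stayed within 1.5 times, but their direction did not: with median-of-ratios scaling the knockout-labelled pair had 264 genes higher and 29 lower, against 157 and 91 with CPM, and the wild-type pair had 452 higher and 84 lower, against 221 and 477. The microglial Igf1r call depended on the sham library used in both pairs and on the scaling in the wild-type pair. Levels in sham microglia rest on 62 and 40 Igf1 UMIs, and with 1 library per group the spread between mice is unknown. No paired analysis was possible because each group has 1 library and the labels give no shared replicate numbers.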

Other observations

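Other carriers and the second ligand were chosen for description after their values were seen. Igfbp3, a carrier of IGFs in blood, had 57.8% of its UMIs in the endothelial class and 27.5% in the 29 cells with mural markers. Igfbp2 had 45.9% of its UMIs in cells with ependymal or choroid plexus markers and 30.1% in the 11 cells with fibroblast markers. Igf2 had 41.7% of its UMIs in those 11 cells, where it stood at 609 CPM. These classes hold few cells and are what a CD11b selection leaves behind, so their shares describe these libraries only.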
